A study of Mus musculus with 9 samples.

Results

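The 8 genes Pou5f1, Nanog, Sox2, Sall4, Utf1, Zfp281, Lin28a and Lin28b encode factors that naïve and primed mouse pluripotent stem cells both express. Each was found by its Ensembl identifier as 1 row of the count table, so that the 8 members stood among 54232 gene IDs, and all 8 passed the low-count filter in every comparison. Pou5f1 (also called Oct4), Sox2 and Nanog are transcription factors that occupy many of the same enhancers in pluripotent cells, where Oct4 and Sox2 bind side by side on a composite site made of a Sox element and an octamer. Sall4, Utf1 and Zfp281 are further nuclear proteins of this network, and Lin28a and Lin28b are RNA-binding proteins that block the maturation of let-7 microRNAs. Naïve cells resemble the epiblast before implantation and primed cells, or mEpiSCs, resemble the epiblast after it.

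RNA-seq was carried out on 9 libraries. Naïve mESCs grown in serum/LIF (S/L) medium at passage 5 (P5) and passage 15 (P15), and primed cells grown in Fgf2 and Activin A (F/A) medium at P5 and P15, gave 2 libraries each, and mouse embryonic fibroblasts (MEFs) gave 1 library. All were of the C57 x CBA strain, which is the cross of the study's OG2 line, and the primed cells were converted from the naïve ones, so the 4 stem cell groups stand for 1 line. The OG2 line carries a GFP transgene under the distal Oct4 promoter in both states, and whether its transcript holds exon bases of Pou5f1 is not given in the sources used here. Naïve and primed cells were both grown on mitomycin C-treated MEF feeders, and how far feeders were removed before RNA extraction is not given in the sources used here.

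The naïve and primed libraries held 14378051 to 20985136 counts and the MEF library 25646547 counts, and levels are given as CPM (read counts relative to library size) scaled by the trimmed mean of M values (TMM). The states matched their markers. The 7 naïve markers, such as Zfp42, Esrrb and Klf4, summed to 2062 to 2482 CPM in naïve libraries. Their sum was 233 to 234 CPM in primed P5 and 108 to 113 CPM in primed P15. The 6 primed markers, such as Fgf5 and Otx2, summed to 343 to 364 CPM in naïve and 1000 to 1025 CPM in primed libraries. The 30 fibroblast markers summed to 16806 to 16879 CPM in naïve P5, 12103 to 12364 CPM in primed P5, 26355 to 27085 CPM in naïve P15, 21042 to 21997 CPM in primed P15 and 103737 CPM in MEFs. The sums rest on a few abundant genes such as Col1a1, and as a list the markers split, with 6 higher and 19 lower in primed cells at P5 (median -0.55 on the log2 scale) and 11 higher and 11 lower at P15 (median 0.06). Dcn went against the sum, with means of 39.8 CPM in naïve P5, 468 CPM in primed P5, 19.3 CPM in naïve P15 and 724 CPM in primed P15, above the 215 CPM in MEFs. The part of these markers in the members' values was not tested, and in these bulk samples fewer cells of a type cannot be told apart from less RNA per cell. Most endoderm markers were higher in primed cells. These were 9 of 11 tested at P5 (median 2.78) and 8 of 10 at P15 (median 1.92), against 31.2% and 28.2% of all genes. Between P15 and P5 in primed cells, 3 were higher and 7 of 11 lower under TMM (median -0.44), against 24.3% and 22.8% of all genes. With TMM computed only over genes under 1 CPM in MEFs, 4 were higher and 3 lower (median 0.12). That scaling called 9642 of 15957 genes higher and 1054 lower (median 0.56). Foxa2 and Sox17 rose the most. Foxa2 had means of 0.617 and 0.201 CPM in naïve P5 and P15 against 48.8 and 86.6 CPM in primed P5 and P15. Sox17 had 0.543 and 0.433 CPM against 29.2 and 16.1 CPM. Lama1 (log2 -1.58 and -2.62) and Col4a1 (-0.16 and -0.69) were the endoderm markers lower in primed cells at P5 and P15. Pdgfra, which is also a fibroblast marker, Dab2, Gata6 and Col4a1 stood at 203, 168, 39.4 and 2100 CPM in MEFs. The sum over the 13 endoderm markers, which Col4a1 dominated, was 527 to 538 CPM in naïve P5. It was 703 to 762 CPM in the other 3 stem cell groups and 2551 CPM in MEFs. Afp had 0 counts in every group but primed P15 and MEFs. The part of endoderm-like cells in the members' values was not tested.

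In MEFs the members were at or near 0 with 1 exception. Sall4 and Utf1 had 0 counts, which allows up to 0.129 CPM, Pou5f1 had 1 count, and Lin28a and Lin28b had 2 counts each. Nanog and Sox2 stood at 1.38 and 1.42 CPM, or 1.47% and 0.997% of the lowest stem cell library. Zfp281, a zinc finger protein with roles outside pluripotent cells, stood at 67.4 CPM in MEFs, or 83.0% of its lowest stem cell library, and its part in the Zfp281 values was not tested.

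The regulatory sequence around 3 of the start sites is shown first, because the proteins of Pou5f1 and Sox2 bind octamer and Sox elements and Nanog is the other factor of that core. The windows are from RefSeq (GRCm38.p6), run from 250 bases before to 50 bases after the start, and are written 5′ to 3′ on the gene's own strand, with capitals marking a match, on either strand, to the octamer core ATGCAAA or the Sox element CATTGT. They lie at chr17:35505782-35506081 (plus strand) for Pou5f1, chr6:122707239-122707538 (plus strand) for the first of 2 overlapping Nanog windows, and chr3:34649745-34650044 (plus strand) for Sox2.
Pou5f1: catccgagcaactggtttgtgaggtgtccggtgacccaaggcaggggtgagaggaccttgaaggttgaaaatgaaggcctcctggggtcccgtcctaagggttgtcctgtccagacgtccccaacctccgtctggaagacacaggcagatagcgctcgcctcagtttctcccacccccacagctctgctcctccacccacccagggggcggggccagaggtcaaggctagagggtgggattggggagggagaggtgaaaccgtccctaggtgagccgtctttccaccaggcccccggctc
Nanog: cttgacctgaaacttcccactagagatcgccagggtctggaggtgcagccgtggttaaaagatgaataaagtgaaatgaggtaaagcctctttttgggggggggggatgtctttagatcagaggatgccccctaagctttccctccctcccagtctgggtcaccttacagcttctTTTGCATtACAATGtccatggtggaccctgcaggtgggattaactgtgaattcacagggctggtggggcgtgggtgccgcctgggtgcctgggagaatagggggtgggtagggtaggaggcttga
Sox2: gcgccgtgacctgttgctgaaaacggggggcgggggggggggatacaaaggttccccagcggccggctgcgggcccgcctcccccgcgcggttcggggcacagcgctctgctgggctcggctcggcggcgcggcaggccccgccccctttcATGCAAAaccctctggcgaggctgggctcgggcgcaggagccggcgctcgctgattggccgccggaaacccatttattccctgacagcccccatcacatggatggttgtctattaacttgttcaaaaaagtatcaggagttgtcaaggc

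The Nanog window held both elements on the opposite strand, beginning at position -75 from the start, as a Sox element, 1 spacer base and an octamer core. Of 32851 promoter windows of the same length, 4.63% held the octamer core, 12.6% held the Sox element, and 2 (0.00609%) held the composite, both of them Nanog windows that overlap each other. The Sox2 window held 1 octamer core at -99 and no Sox element, and the first Pou5f1 window held neither. The Sox2 window ends at 34650044, ahead of the gene as GENCODE places it, from 34650405. A second Pou5f1 window, at a start inside the gene, held 1 Sox element at -158, and the Lin28a window held 1 at -96. The windows of Utf1, Zfp281 and Lin28b held neither, which says only that these letters were not in these 300 bases (the Lin28b window, chr10:45470152-45470451 on the minus strand, lies inside the gene as GENCODE places it), and RefSeq gave windows for 7 of the 8 members, with Sall4 unmatched. G and C made up 62.7% of the first Pou5f1 window, 54.3% of that of Nanog and 66.3% of that of Sox2, against 39.0% for Lin28b and a median of 52.7% over all windows.

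Whether the core factors differ between the states was asked separately at P5 and at P15. The members differed widely in how near the states were. At P5, Pou5f1, Nanog, Sox2 and Utf1 were between 24.9% and 41.1% of their naïve level in primed cells, Sall4 and Zfp281 were at 82.2% and 87.0%, and Lin28a and Lin28b were higher, at 125% and 127%. By P15, Pou5f1 and Nanog had risen in primed cells to 78.2% and 64.9% of the naïve level, whereas Sox2 and Utf1 stood at 31.5% and 28.6%. In naïve cells no member passed the test between passages.

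**Figure D1:**
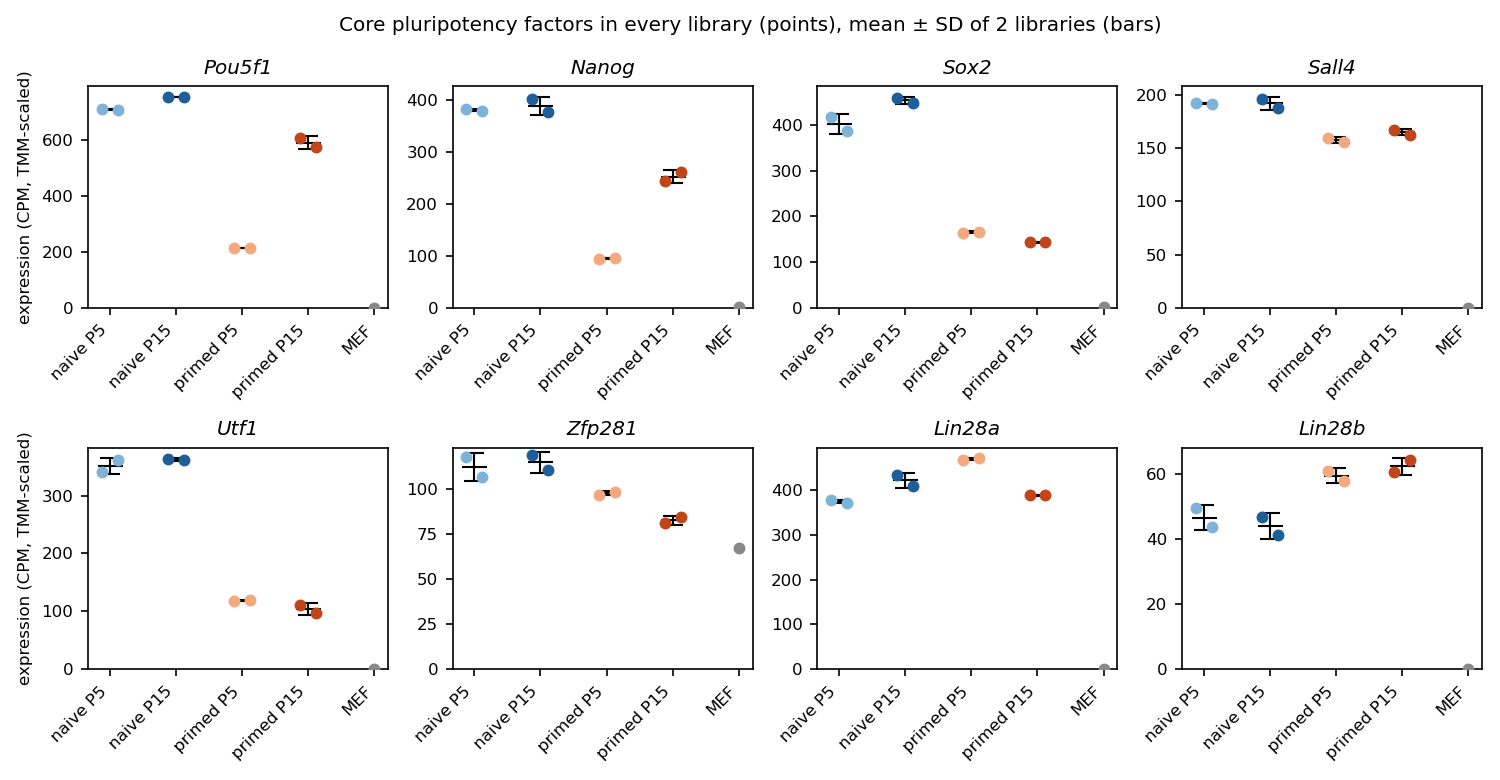
TMM-scaled CPM of the 8 members in each library (points), with the mean ± SD of 2 libraries as bars and MEFs as 1 library without a bar; each panel has its own linear axis from 0. Pou5f1 rose in primed cells from 214 CPM at P5 to 573 and 606 CPM at P15 while Sox2 and Utf1 were at or below 167 CPM in all 4 primed libraries, and Zfp281 alone was above 1.42 CPM in MEFs.

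Pou5f1 (ENSMUSG00000024406, mm10, chromosome 17, 35506018 to 35510772, plus strand) encodes the POU-domain factor that is required for pluripotency in both states. Its levels were 709.5 and 707 CPM in naïve P5, 214 and 214 CPM in primed P5, 754 and 754 CPM in naïve P15, and 606 and 573 CPM in primed P15. The naïve libraries were thus the highest at either passage, the primed P15 libraries lay between them and primed P5, and no 2 groups overlapped. The log2 difference of primed from naïve cells was -1.72 ± 0.035 (SE, 2 against 2 libraries, adjusted p = 1.1e-26, edgeR's quasi-likelihood test) at P5 and -0.35 ± 0.054 (adjusted p = 5.42e-07) at P15. The P15 value was -0.05 (adjusted p = 0.621) when TMM was computed only over genes under 1 CPM in MEFs, a scaling that moved the median of all genes in this comparison by 0.29. Of 7 annotated Pou5f1 pseudogenes, 5 had a row, with at most 1 count in any naïve or primed library, as had the opposite-strand transcript Gm19553 that overlaps 317 of its exon bases. How many reads Pou5f1 shares with these copies cannot be read from such counts, since the handling of multi-mapped reads is not given in the sources used here.

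Nanog (ENSMUSG00000012396, chromosome 6, 122707489 to 122714633, plus strand) encodes the homeodomain factor of the network. It was at 382 and 379 CPM in naïve P5, 94.0 and 95.1 CPM in primed P5, 401 and 376 CPM in naïve P15, and 243 and 261 CPM in primed P15. The 2 naïve groups overlapped, and both primed groups lay below them and apart from each other. The log2 difference of primed from naïve cells was -2.01 ± 0.039 (adjusted p = 3.05e-27) at P5, the largest of the 8, and -0.62 ± 0.059 (adjusted p = 1.36e-11) at P15. Nanog kept its direction and its call at both passages under all 13 alternatives, with values from -2.04 to -1.8 at P5 and from -0.69 to -0.32 at P15.

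Sox2 (ENSMUSG00000074637, chromosome 3, 34650405 to 34652461, plus strand) encodes the HMG-box partner of Oct4. Its levels were 419 and 388 CPM in naïve P5, 164 and 167 CPM in primed P5, 461 and 449 CPM in naïve P15, and 143 and 144 CPM in primed P15. The 4 primed libraries lay far below the 4 naïve ones, and primed P15 lay just below primed P5. Primed cells were lower by a log2 difference of -1.28 ± 0.039 (adjusted p = 3.87e-22) at P5 and -1.66 ± 0.058 (adjusted p = 3.14e-24) at P15. Sox2 lies within Sox2ot, a transcript on the same strand that shares none of its exon bases and had 10 to 21 counts in the stem cell libraries.

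Utf1 (ENSMUSG00000047751, chromosome 7, 139943789 to 139945112, plus strand), a chromatin-bound factor of undifferentiated cells, had the same shape. It was at 341 and 361 CPM in naïve P5, 118 and 119 CPM in primed P5, 364 and 361 CPM in naïve P15, and 111 and 96.3 CPM in primed P15. The naïve groups met at 361 CPM, and the primed groups were below them at both passages. The log2 difference of primed from naïve cells was -1.57 ± 0.039 (adjusted p = 2.48e-24) at P5 and -1.80 ± 0.064 (adjusted p = 4.56e-24) at P15.

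At P5, Sall4 and Zfp281 differed least among the members that were lower in primed cells. Sall4 (ENSMUSG00000027547, chromosome 2, 168748332 to 168767943, minus strand), a zinc finger partner of Oct4, was at 193 and 192 CPM in naïve P5, 160 and 156 CPM in primed P5, 197 and 188 CPM in naïve P15, and 167 and 163 CPM in primed P15. Its naïve groups overlapped, and every primed library was below every naïve one. The log2 difference was -0.28 ± 0.039 (adjusted p = 2.4e-07) at P5, where library size alone gave -0.08 (adjusted p = 0.0714), and -0.22 ± 0.060 (adjusted p = 0.00198) at P15, where library size alone gave -0.11 (adjusted p = 0.0982) and the scaling over genes low in MEFs turned it to 0.08 (adjusted p = 0.476). The P15 call was also lost without naïve P15 replicate 1 or without either primed P15 replicate (adjusted p from 0.0146 to 0.032), and with the replicate number as a block (adjusted p = 0.0132).

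Zfp281 (ENSMUSG00000041483, chromosome 1, 136624901 to 136630053, plus strand) was at 118 and 107 CPM in naïve P5, 97 and 98.7 CPM in primed P5, 119 and 111 CPM in naïve P15, and 81.1 and 84.5 CPM in primed P15. The primed libraries were below the naïve ones at each passage, and those of P15 were the lowest. The log2 difference was -0.20 ± 0.048 (adjusted p = 0.000555) at P5, where library size alone gave 0.0 (adjusted p = 0.946) and leaving out either primed replicate lost the call (adjusted p = 0.0361 without replicate 1 and 0.0174 without replicate 2). At P15 it was -0.47 ± 0.067 (adjusted p = 1.52e-07), and the scaling over genes low in MEFs gave -0.17 (adjusted p = 0.162).

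Both Lin28 genes were higher in primed cells at P5. Lin28a (ENSMUSG00000050966, chromosome 4, 134003330 to 134018841, minus strand), the mainly cytoplasmic protein that recruits a terminal uridylyltransferase to the let-7 precursor, was at 377 and 372 CPM in naïve P5, 468 and 471 CPM in primed P5, 433 and 410.2 CPM in naïve P15, and 389 and 388 CPM in primed P15. Primed P5 was the highest group and naïve P5 the lowest, and no groups overlapped. The log2 difference of primed from naïve cells was 0.33 ± 0.034 (adjusted p = 8.15e-10) at P5. At P15 it was -0.11 (95% interval -0.23 to 0.0, adjusted p = 0.0689) under TMM and 0.19 (adjusted p = 0.0684) under the scaling over genes low in MEFs, so that the sign at P15 depended on the scaling.

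Lin28b (ENSMUSG00000063804, chromosome 10, 45376620 to 45486395, minus strand), the paralog that can sequester let-7 primary transcripts in the nucleus, was at 49.3 and 43.7 CPM in naïve P5, 60.9 and 57.7 CPM in primed P5, 46.8 and 41.1 CPM in naïve P15, and 60.4 and 64.0 CPM in primed P15. The naïve groups overlapped each other, as did the primed groups, and every primed library was above every naïve one. The log2 difference was 0.35 ± 0.063 (adjusted p = 1.17e-05) at P5 and 0.51 ± 0.080 (adjusted p = 1.01e-06) at P15, and it was positive and called under all 13 alternatives at either passage. In CPM, Lin28a exceeded Lin28b by 6.07 to 9.98 times in the stem cell libraries, with the lowest ratios, 6.44 and 6.07, in primed P15 and the highest, 9.25 and 9.98, in naïve P15.

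Counted together, 8 members of 8 passed the test at P5 (adjusted p under 0.01), 2 higher and 6 lower in primed cells, against 62.3% of the 16482 genes tested, 31.2% higher and 31.1% lower. With a fold of at least 2 as well, 4 members were lower and 0 higher, against 8.85% and 13.5% of all genes. At P15, 7 members passed, 1 higher and 6 lower, against 56.6% of 15733 genes, 28.2% higher and 28.4% lower, and 2 were lower by a fold of at least 2, against 11% of all genes. The median log2 difference over the members was -0.78 at P5 and -0.41 at P15, beside 0.0078 and -0.0039 over all genes. The number of members lower at P15 was 3 under the scaling over genes low in MEFs, where 2334 of 15733 genes were lower. A call in itself was thus common among all genes. At P5 the size of the change set Pou5f1, Nanog, Sox2 and Utf1 apart from the other 4. There, 9.65% to 18.3% of all genes had a difference as large as these in either direction. For the other members the share was 62.5% to 78.5%. At P15 the shares were 14.3% for Sox2, 12.9% for Utf1, 40.8% for Nanog and 60.4% for Pou5f1. They were 48.0% to 86.0% for the other 4, so only Sox2 and Utf1 stood apart at P15.

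**Figure D2:**
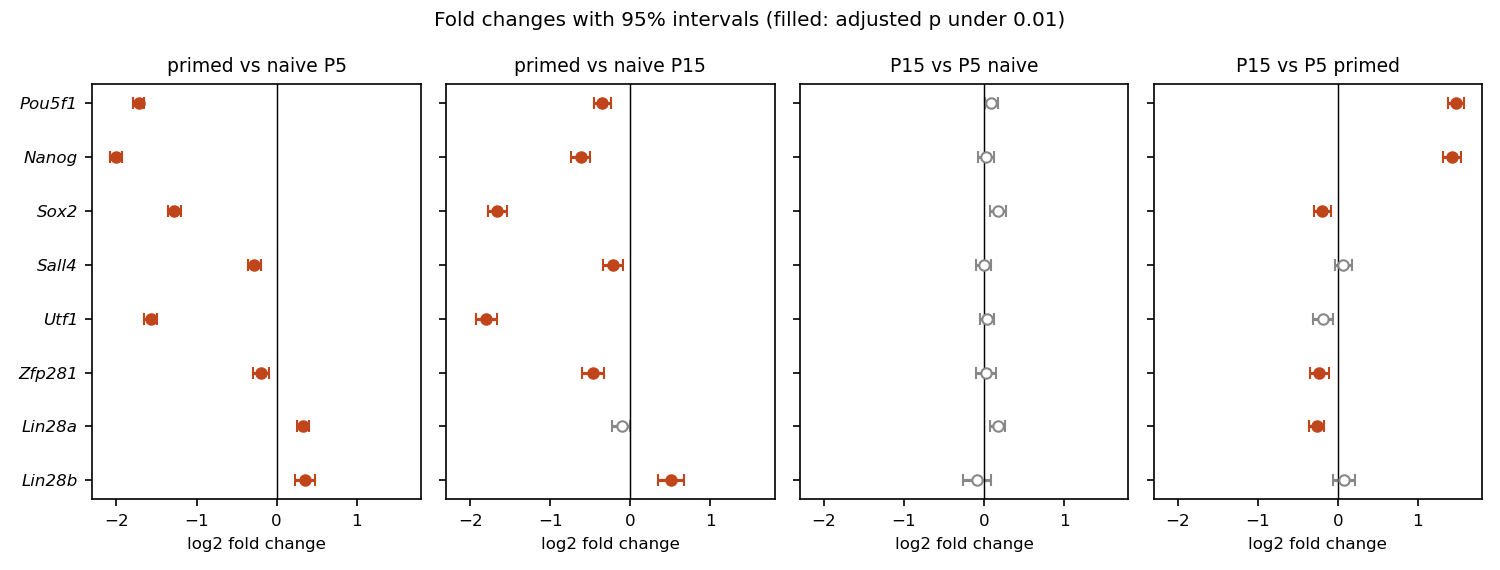
Log2 fold change of each member (points) with its 95% interval (bars) in the 4 comparisons, under TMM scaling, filled where the adjusted p was under 0.01 in edgeR's quasi-likelihood test. Pou5f1 and Nanog lie at 1.47 and 1.43 in the comparison of primed P15 with primed P5, while the other 6 lie between -0.26 and 0.08 there and would all be above 0 under the scaling over genes low in MEFs.

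Passage was compared within each state. In naïve cells 0 members passed between P15 and P5, against 9.22% of 15683 genes (4.21% higher and 5.01% lower, and 0.721% lower by a fold of at least 2), 3 members had an unadjusted p under 0.05, and DESeq2 called 0 as well. The differences were small, from -0.09 for Lin28b to 0.17 for Sox2 and Lin28a on the log2 scale, and the 95% interval of Pou5f1 ran from 0.01 to 0.17 and that of Nanog from -0.07 to 0.12. Sox2 (adjusted p = 0.0191) and Lin28a (adjusted p = 0.015) were nearest to the threshold, and both passed it with the replicate number as a block (adjusted p = 5.82e-05 and 0.000111) and in the fit of all 8 libraries.

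In primed cells 5 members passed between P15 and P5, against 47.1% of 15957 genes, and the 2 that were higher, Pou5f1 and Nanog, both had a fold of at least 2, against 3.18% of all genes. Of the 3 that were lower under TMM, which all rose under the scaling over genes low in MEFs, 0 reached that fold, against 8.43% of all genes. Pou5f1 rose 2.75-fold (log2 1.47 ± 0.048, adjusted p = 1.27e-19) and Nanog 2.67-fold (log2 1.43 ± 0.055, adjusted p = 4.69e-18). Of all genes, 1.61% had a log2 difference at or above that of Pou5f1 and 1.74% at or above that of Nanog. Both rises were called under all 12 alternatives, from 1.34 to 2.04 for Pou5f1 and from 1.3 to 1.99 for Nanog. Of the 30 fibroblast markers, 24 were higher and 3 lower in primed P15 than in primed P5 (median 0.82 on the log2 scale). The shares of all genes were 24.3% and 22.8%. Under the scaling over genes low in MEFs the markers gave 27 higher and 1 lower (median 1.38). Of all genes under it, 9642 of 15957 were higher and 1054 lower (median 0.56). In naïve cells, where 0 members passed, 18 markers were higher and 2 lower at P15 under TMM (median 0.43). The shares of all genes there were 4.21% and 5.01%. MEFs held 1 count of Pou5f1 and 1.38 CPM of Nanog. The part of fibroblasts in the rises of Pou5f1 and Nanog was not tested.

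The other 6 members did not rise with Pou5f1 and Nanog in the TMM-scaled values. Under TMM, Sox2 (-0.20, adjusted p = 0.00197), Zfp281 (-0.23, adjusted p = 0.00132) and Lin28a (-0.26, adjusted p = 1.72e-05) were lower at P15, but under the scaling over genes low in MEFs they stood at 0.37, 0.34 and 0.3, since that scaling moved the median of all genes by 0.56. Relative to that median they were at -0.20, -0.23 and -0.26, as follows from a shift common to all genes, so their sign rests on the scaling. The Sox2 and Zfp281 calls were lost without primed P5 replicate 2 (adjusted p = 0.0272 and 0.0138). Utf1 was at -0.18 (adjusted p = 0.0123, and 0.38 under the scaling over genes low in MEFs), Sall4 at 0.07 (95% interval -0.03 to 0.18) and Lin28b at 0.08 (95% interval -0.06 to 0.21), and these 3 did not pass under TMM.

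Whether the difference between the states itself changed with passage was tested as an interaction in a fit of all 8 stem cell libraries. It passed for 4 members, against 24.1% of 16926 genes. The primed minus naïve log2 difference was larger at P15 than at P5 by 1.39 ± 0.058 for Pou5f1 (adjusted p = 1.21e-18) and by 1.40 ± 0.068 for Nanog (adjusted p = 6.95e-17), and 2.36% of all genes had a called interaction in that direction with a fold of at least 2 (4.8% in the other). For Sox2 it was -0.36 ± 0.066 (adjusted p = 5.48e-05) and for Lin28a -0.42 ± 0.059 (adjusted p = 9.28e-07) under TMM, and these 2 were -0.12 and -0.18 and not called under the scaling over genes low in MEFs. Utf1, Zfp281, Sall4 and Lin28b had adjusted p of 0.0213, 0.017, 0.379 and 0.217.

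The combination shown by Pou5f1 and Nanog was counted over all genes. Of 15712 genes tested in both comparisons, 1036 were lower in primed than naïve cells at P5 by a fold of at least 2, the 4 members Pou5f1, Nanog, Sox2 and Utf1 among them. Of these 1036 genes, 92 (8.88%) were higher at P15 than at P5 in primed cells by a fold of at least 2, and 253 (24.4%) were lower still by a fold of at least 2. Pou5f1 and Nanog were among the 92, and Sox2 and Utf1 were in neither set. Both comparisons use the primed P5 libraries, so the 2 criteria are not independent of each other.

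The ratio of Oct4 to its partner differed between groups. In CPM, Pou5f1 over Sox2 was 1.70 and 1.82 in naïve P5, 1.31 and 1.28 in primed P5, 1.63 and 1.68 in naïve P15, and 4.24 and 3.98 in primed P15. This ratio is free of the scaling of the libraries, and it was highest in primed P15 and lowest in primed P5, with the naïve groups between. Pou5f1 over Nanog varied less, from 1.86 to 2.01 in naïve and from 2.19 to 2.49 in primed libraries.

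Levels were compared between genes per kilobase of annotated exon. In naïve P5 the order was Pou5f1 (315 CPM per kb), Utf1 (286), Sox2 (196), Nanog (169.6), Lin28a (93.8), Sall4 (34.7), Zfp281 (22.8) and Lin28b (5.13), and the order in naïve P15 was the same. In primed P5 Lin28a came first at 117 CPM per kb, ahead of Utf1 (96.4), Pou5f1 (95.3), Sox2 (80.5) and Nanog (42.2). In primed P15 Pou5f1 was first again at 262 CPM per kb, with Nanog (113) and Lin28a (97.2) next, ahead of Utf1 (84.4) and Sox2 (69.8). Sall4, Zfp281 and Lin28b kept the last 3 places in all 4 groups. No neighbours in these orders overlapped between libraries, but Utf1 (96.0 and 96.8) and Pou5f1 (95.2 and 95.4) in primed P5 were so close that a small error in exon length would reverse them.

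**Figure D3:**
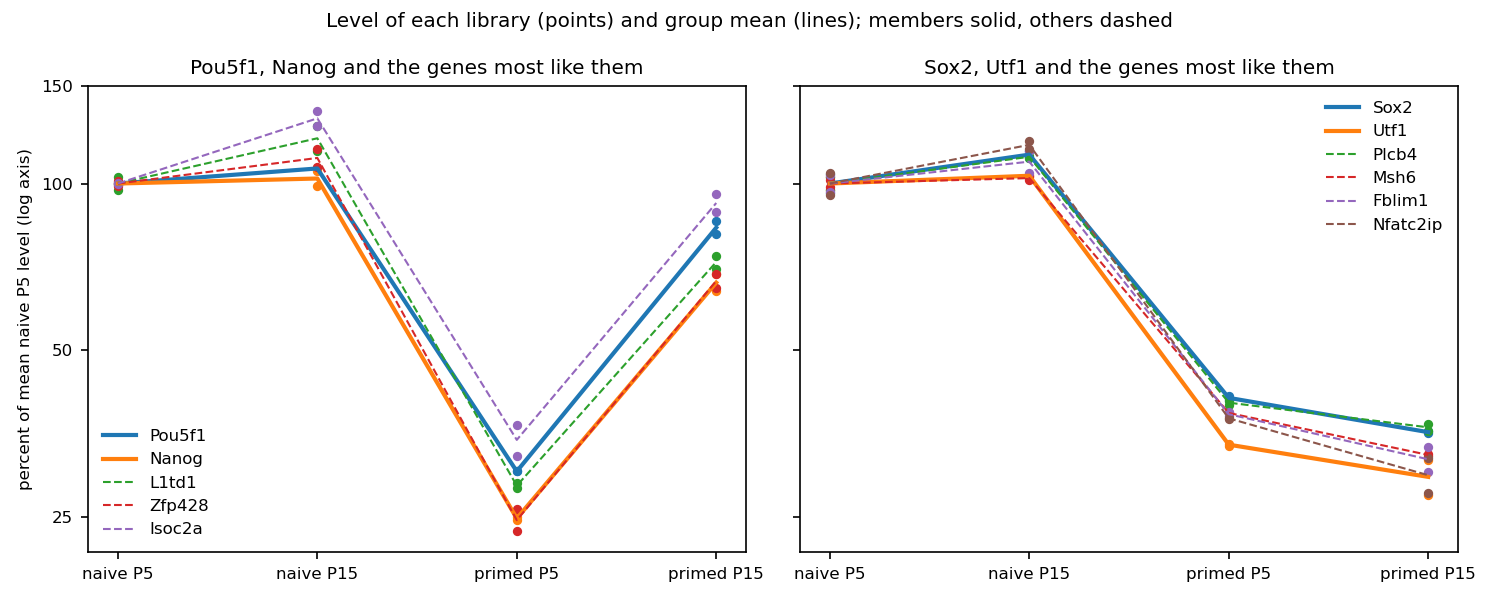
Level of each gene as percent of its mean in naïve P5 (log axis), with libraries as points and group means as lines, for Pou5f1, Nanog, Sox2 and Utf1 (solid) and the genes nearest to them in profile (dashed). Pou5f1 and Nanog fall to 30.3% and 24.9% of naïve in primed P5 and recover by primed P15, whereas Sox2 and Utf1 stay low.

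Profiles over the 8 stem cell libraries were compared as centred log2(CPM + 1) values, by the root mean square (RMS) difference, as a description. Among the members, Sox2 and Utf1 were 0.136 apart, Pou5f1 and Nanog 0.148, and Sall4 and Zfp281 0.122, while Pou5f1 and Sox2 were 0.627 apart. Of 9755 protein-coding genes that averaged 10 CPM or more, the 8 members left out, the nearest to Pou5f1 were Isoc2a (0.13) and L1td1 (0.151), and the nearest to Nanog were Zfp428 (0.0866) and L1td1 (0.0933). L1td1, which encodes an RNA-binding protein of pluripotent cells, had means of 532 CPM in naïve P5, 151 CPM in primed P5, 642 CPM in naïve P15 and 384 CPM in primed P15, and 0.0863 CPM in MEFs. Only 19 genes lay within 0.25 of Pou5f1 and 11 within 0.25 of Nanog.

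More genes shared the lasting fall of Sox2 and Utf1. Plcb4 (0.0502) and Msh6 (0.0604), a mismatch repair gene, were nearest to Sox2, with 154 genes within 0.25, and Fblim1 (0.0781) and Nfatc2ip (0.0847) were nearest to Utf1, with 84. Msh6 had means of 592 CPM in naïve P5, 228 CPM in primed P5, 605 CPM in naïve P15 and 192 CPM in primed P15. The 4 remaining members varied little, so that 3107 to 4773 genes lay within 0.25 of each. Their nearest genes were Ergic1 and Acin1 for Sall4, Fitm2 and Ei24 for Zfp281, Tapt1 and Mbd5 for Lin28a, and Rnf145 and Cybc1 for Lin28b. The 8 libraries come from 4 groups, so a small difference in profile mainly reflects 4 group means.

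Paralogs of Pou5f1, Sox2, Sall4 and Zfp281, which share their DNA-binding domains, were mixed. The list held no paralog of Nanog, Utf1, Lin28a or Lin28b. Of 17 tested, 8 rose and 6 fell in primed cells at P5, against 31.2% and 31.1% of all genes (median 0.62 on the log2 scale). At P15, 7 rose and 8 fell, against 28.2% and 28.4% of all genes (median -0.05). Under the scaling over genes low in MEFs, 8 rose and 6 fell at P15 (median 0.25). That scaling called 6453 of 15733 genes higher and 2334 lower (median 0.29). Sox3, the close relative of Sox2 in the same Sox subgroup, rose by 1.67 ± 0.10 (adjusted p = 6.46e-15) at P5 and 2.06 ± 0.12 (adjusted p = 2.7e-17) at P15, while Sox2 fell. Its means were 8.88 ± 0.237 (SD, n = 2) in naïve P5, 28.2 ± 0.345 in primed P5, 8.87 ± 0.554 in naïve P15 and 36.9 ± 4.68 CPM in primed P15, so per kilobase it reached 17.9 CPM in primed P15 against 69.8 CPM for Sox2. Pou3f1 (Oct6), a POU factor of the primed state and one of the 6 primed markers, rose by 1.13 and 1.90, and Sall1 fell by 0.47 and 0.66 on the log2 scale.

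Known protein partners of Oct4, Nanog, Sox2 and Sall4 were mostly lower in primed cells under TMM. At P5, 28 of 40 fell and 4 rose (median -0.35), against 31.1% and 31.2% of all genes. At P15, 26 fell and 6 rose (median -0.33), against 28.4% and 28.2% of all genes. Under the scaling over genes low in MEFs the P15 counts were 9 lower and 10 higher (median -0.03). Of all genes under it, 2334 of 15733 were lower and 6453 higher (median 0.29). At P5 under that scaling 27 partners were lower and 4 higher, where 4982 of 16482 genes were lower and 4997 higher. Tet1, the 5-methylcytosine oxidase that binds Nanog, fell the most, from 468 ± 18.9 CPM in naïve P5 to 96.1 ± 1.11 CPM in primed P5 and from 468 ± 47.9 CPM in naïve P15 to 56.5 ± 7.47 CPM in primed P15 (log2 -2.28 and -3.05, adjusted p = 3.36e-28 and 4.92e-29). Rest, a repressor of neuronal genes, fell by 1.02 and 1.44 on the log2 scale. Med12 of the Mediator complex rose by 0.53 and 0.60, and Tcf7l1, the repressing Wnt pathway factor, rose by 0.29 and 0.54. Med12, Tcf7l1 and Rest were also expressed in MEFs, at 55.6, 78.4 and 106 CPM.

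The Lin28 and let-7 pathway had calls in both directions. Of 28 genes tested, 12 rose and 10 fell in primed cells at P5, against 31.2% and 31.1% of all genes (median 0.03). At P15, 13 rose and 9 fell, against 28.2% and 28.4% of all genes (median 0.04). Under the scaling over genes low in MEFs, 15 rose and 3 fell at P15 (median 0.34). That scaling called 6453 of 15733 genes higher and 2334 lower (median 0.29). Hmga2, an architectural chromatin protein and let-7 target, rose from 161 ± 4.10 to 429.5 ± 5.46 CPM at P5 and from 166 ± 0.129 to 385 ± 14.4 CPM at P15 (log2 1.42 and 1.22). It also stood at 202 CPM in MEFs. Arid3b, another let-7 target, rose by 1.19 and 1.56 and was at 2.98 CPM in MEFs. Mycn, also a let-7 target, fell from 354 ± 2.47 to 90.7 ± 3.10 CPM at P5 and from 291 ± 17.2 to 92.5 ± 1.5 CPM at P15 (log2 -1.96 and -1.65). These genes were named for the largest rises and falls of the list, so both directions among them follow from that choice. The list also holds genes that process microRNAs, and let-7 targets were not counted apart. Ccnd2 fell by 0.35 and 0.94 on the log2 scale and stood at 1050 CPM in MEFs, against 134 to 327 CPM as group means in the stem cells. Among the genes that process microRNAs, Drosha fell at both passages (-0.71 and -0.58), as did the exporter Xpo5 (-0.49 and -0.26), and Dgcr8 (0.03 and -0.10) and Dicer1 (0.06 and -0.09) passed at neither. The uridylyltransferases Tut4 and Tut7 were at 0.36 and 0.41 (both called) at P5 and at -0.03 (not called) and 0.29 (called) at P15, and the exonuclease Dis3l2 was at 0.01 (not called) and 0.41 (called). These values are under TMM. The scaling over genes low in MEFs moved the median of all genes at P15 by 0.29, so P15 differences of about that size rest on the scaling.

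**Figure D4:**
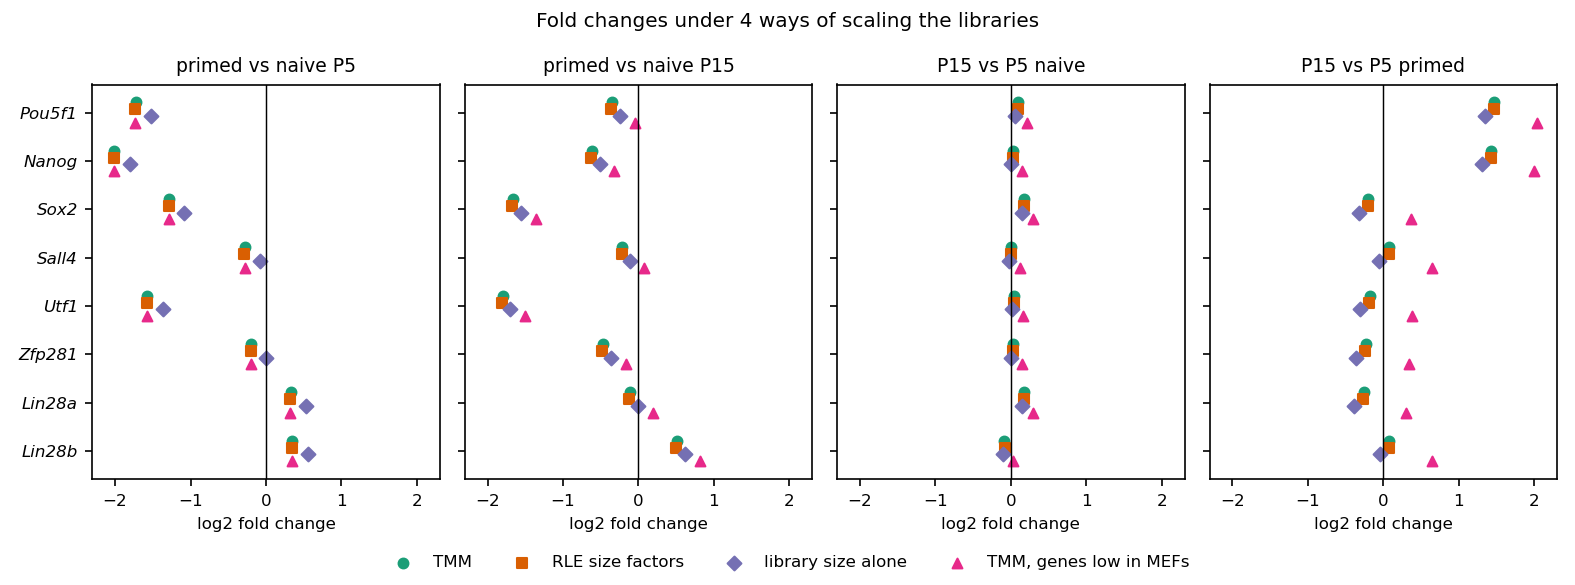
Log2 fold change of each member in the 4 comparisons under 4 ways of scaling the libraries: TMM, relative log expression (RLE) size factors, library size alone, and TMM over genes under 1 CPM in MEFs. TMM and RLE nearly coincide, and in primed P15 against primed P5 the last scaling moves all 8 members up together, to 2.04 for Pou5f1 and 1.99 for Nanog and to between 0.3 and 0.64 for the other 6.

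The scaling plot shows which differences rest on the choice of reference genes. A scaling adds nearly the same amount to the log2 difference of every gene, so the distances between members do not bear on which scaling is right. Between the primed passages, the values of every member but Pou5f1 and Nanog lay on either side of 0, depending on the scaling. The same held for Sall4 and Lin28a between the states at P15 and for Sall4 and Lin28b between the naïve passages.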

How the data were processed

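Poly(A) RNA of 9 libraries was sequenced. The authors trimmed reads with Cutadapt, aligned them to mm10 with HISAT2 (up to 20 alignments a read) and deposited raw counts per Ensembl gene from featureCounts; the tool versions, annotation release, strand setting and handling of multi-mapped reads are not given in the sources used here, so members that share reads with other genes or antisense transcripts are uncertain to that degree. The file headers' early and late columns were read as P5 and P15. Rows of 92 spike-ins, with 0 counts, were left out. Names, exon lengths and positions came from GENCODE M21 (54165 of 54232 IDs matched).

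Genes that reached 10 counts in 2 or more of the compared libraries were tested with edgeR 4.0.16 (R 4.3.3; TMM, quasi-likelihood test, two-sided), with Benjamini-Hochberg adjustment over all genes tested and a call at an adjusted p under 0.01. MEFs, with 1 library, entered no test. Nothing in the labels says that replicates are separate cultures. The study describes its CPM values of naïve and primed cells as 2 biological repeats, without saying what was repeated. The p-values thus measure only the spread between these libraries, and how far that spread is technical is not given in the sources used here. Floors (3 counts, 0.148 to 0.221 CPM in stem cell libraries) cover counting error only. The biological coefficient of variation was 3.26% to 4.79%. Replicates differed by more than sampling noise, with a mean chi-square per gene of 2.10 to 3.28. Counts were also simulated with a biological coefficient of variation of 5% and 50 genes changed at each fold. For primed against naïve P5 (16133 genes), 40%, 84%, 98% and 100% of genes changed 1.25-, 1.5-, 2- and 4-fold were recovered. For the interaction (16442 genes) the rates were 12%, 50%, 96% and 100%. These rates hold for the simulated settings only, since 10275 of 16482 genes were called in the real P5 comparison. They do not bear on the choice of scaling.

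The members and gene lists were chosen with earlier results of these data known. Genes named beside the members were the 2 nearest in profile to each, and, from each list that holds no markers, the 2 with the largest rise and the 2 with the largest fall at P15 among those called one way at P5 and P15 and averaging 10 CPM or more; marker genes and the genes of microRNA processing were named after their values were seen. Alternatives were RLE size factors, library size alone, TMM over genes under 1 CPM in MEFs, no count filter, at least 50 counts, DESeq2 1.42.0, a replicate block, 1 fit of all 8 libraries and leaving out each replicate.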

Additional observations from a re-analysis of the deposited data

Results flagged for a closer look

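The difference between primed and naïve cells changed between P5 and P15, by the interaction test over all 8 stem cell libraries (edgeR, adjusted p under 0.01), for 10 of the genes named. As the log2 difference at P15 minus that at P5, the values were 1.39 for Pou5f1, 1.40 for Nanog, -0.36 for Sox2 and -0.42 for Lin28a among the members. The same value was 0.79 for Pou3f1, 0.38 for Arid3b, 0.33 for Mycn, -0.40 for Rest, -0.57 for Ccnd2 and -0.75 for Tet1 among the genes of the lists. Pou5f1 and Nanog were thus the only members whose values came nearer to the naïve level at P15 by a fold of at least 2. The interaction of all genes had its median moved by 0.24 under the scaling over genes low in MEFs, and with that scaling the values of Sox2 (-0.12), Lin28a (-0.18) and Rest (-0.16) were not called. The Arid3b call was lost under library size alone (0.27, adjusted p = 0.0135), without primed P5 replicate 2 (adjusted p = 0.0111) and without naïve P15 replicate 2 (adjusted p = 0.0139), and the Mycn call under library size alone (0.22, adjusted p = 0.017) and without primed P5 replicate 1 (adjusted p = 0.0222).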

How the results depend on the processing

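Of the summary counts recomputed under each alternative, 180 stayed within 1.5 times the reported count and 15 did not, and of the values of single genes 896 kept direction and side of the threshold, 20 lost their call, 31 gained one and 24 changed sign. The cause was not tested, except where the alternative's own construction shows it. Under TMM over genes low in MEFs, 3 members (Nanog, Sox2 and Utf1) were called lower in primed than naïve P15, 8 were called higher and 0 lower in primed P15 against primed P5, 3 (Pou5f1, 0.21 with adjusted p = 0.001, Sox2 and Lin28a) were called higher in naïve P15 against naïve P5, where 2422 genes were called against 1446, and the interaction was called higher for 4 (Pou5f1, Nanog, Sall4 and Lin28b) and lower for 0. The values that changed sign under it were Sall4 (0.08) and Lin28a (0.19) between the states at P15, Sox2 (0.37), Utf1 (0.38), Zfp281 (0.34) and Lin28a (0.3) between the primed passages, Sall4 (0.12) and Lin28b (0.03) between the naïve passages, and the interactions of Utf1 (0.03), Sall1 (0.08) and Hmga2 (0.06), of which those between the primed passages were called. This scaling moved the median of all genes by 0.29, 0.56, 0.12 and 0.24 in these 4 comparisons. The share of higher genes among those called went from 49.9%, 51.5%, 45.6% and 55.0% to 73.4%, 90.1%, 82.8% and 81.4%. Under it, 2334 of 15733 genes were called lower between the states at P15. Between the primed passages 9642 of 15957 genes were called higher and 1054 lower, and between the naïve passages 2006 of 15683 were called higher. The interaction was called higher for 4411 of 16926 genes and lower for 1009. Under library size alone Zfp281 at P5 was 0.0, Sall4 and Lin28b between the primed passages were -0.06 and -0.05, Sall4 and Med12 had interactions of -0.03 each, 4 members had a lower interaction, and the shares of higher genes were 65.7% at P5 (50.1% under TMM), 58.9% at P15, 34.3% between primed passages and 35.3% for the interaction, with the median of all genes moved by 0.21 at P5. Sall4 between the naïve passages was 0.0 under RLE and under DESeq2. With at least 50 counts the interaction was lower for 4 members. Without a count filter 551 genes were called between the naïve passages, and in the fit of all 8 libraries 2 members were higher there.

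Replicate numbers gave only 2 pairs and were not taken as pairing, since deviations of same-numbered libraries correlated at -0.127 (P5) and -0.19 (P15) between states and at 0.161 and 0.159 between passages. With a replicate block 2783 genes and 2 members, both higher, were called between the naïve passages. Crossed pairs, chosen after seeing the data, gave 10675 calls at P5 and 9476 at P15, against 10275 and 8899. Leaving out 1 library at a time gave, between the naïve passages, 0 to 1 members higher (1 without naïve P15 replicate 2) and values from -0.02 to 0.08 for Nanog, -0.03 to 0.03 for Sall4, 0.0 to 0.08 for Utf1, -0.04 to 0.09 for Zfp281 and -0.18 to 0.01 for Lin28b, and between the primed passages 1 to 4 members lower (1 without primed P5 replicate 2).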
